A study of Mus musculus with 10 samples.

Results

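Myelin and differentiating oligodendrocyte genes are described here across neural stem cell cultures with and without a Lin28a virus. The set holds 9 genes, Mbp, Cnp, Mog, Mag, Cldn11, Bcas1, Opalin, Gpr17 and Ugt8a, taken by symbol from a table of 17919 RefSeq genes, and all 9 were listed. The cultures were neural stem cells of ICR mice, isolated on embryonic day 10 from the ventral part of the midbrain and passaged every 4 days. Cultures transduced with a lentivirus for Lin28a, an RNA-binding protein that blocks let-7 microRNA maturation, were set against cultures that received a mock control virus. RNA-seq covered both cultures at passage 3 (P3) and passage 1 (P1), polysome-seq (RNA that sediments with several ribosomes) covered both at P3, and small RNA libraries covered both at P3 and P1. Each combination was 1 library. No difference below has a replicate check, none was tested, and every statement describes these libraries. The virus was used on whole cultures, and the labels do not say which cells took it up.

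Oligodendrocytes are the glia that wrap axons of the central nervous system in myelin, a compact stack of membrane rich in a few proteins and galactolipids. They arise from dividing precursors marked by Pdgfra, Olig2 and Sox10. Precursors that stop dividing first express genes such as Gpr17 and Bcas1, then enzymes such as Ugt8a and Cnp, and then the structural and surface proteins of myelin, with Mog among the last. Sox10 and Myrf are the transcription factors known for driving the later steps.

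RNA-seq values are FPKM (fragments scaled to transcript length and library size) and polysome values are RPKM, the same scale for reads. Both are levels per length, so genes can be compared within a library. A ratio is the log2 of (value + 1) in the group named first over (value + 1) in the other. It is given where a gene reached 1 in at least 1 of the 2 libraries, and a gene past 2-fold on that scale is counted. The Lin28a transcript followed the labels, with 104 FPKM at P3 and 478 FPKM at P1 in the Lin28a culture, against 0.0620 FPKM at P3 and 0.128 FPKM at P1 in control. The neural stem cell gene Nes was lower at P3, with 53.0 FPKM against 93.9 FPKM at P1 in the Lin28a culture. In control Nes had 38.6 FPKM at P3 against 88.2 FPKM at P1. Sox2, also a neural stem cell gene, was higher at P3, with 372 FPKM against 260 FPKM at P1 in the Lin28a culture. In control Sox2 had 390 FPKM at P3 against 262 FPKM at P1. Between 12338 and 12461 genes reached 1 FPKM in RNA-seq, and 12098 and 12028 genes reached 1 RPKM in the polysomes of Lin28a and control. Total depth is unknown for these files.

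The summed level of the set was low at P1 and far higher at P3, where Mbp and Cnp made up most of it and Opalin and Mog stayed low. The 9 genes summed to 931 FPKM at P3 against 19.1 FPKM at P1 in the Lin28a culture, and to 1462 FPKM at P3 against 27.7 FPKM at P1 in control. At P3, 8 of 9 genes reached 1 FPKM in each culture, and at P1, 4 of 9 did. These are levels in bulk RNA, in which fewer cells of a type and less RNA per cell cannot be told apart.

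**Figure D1:**
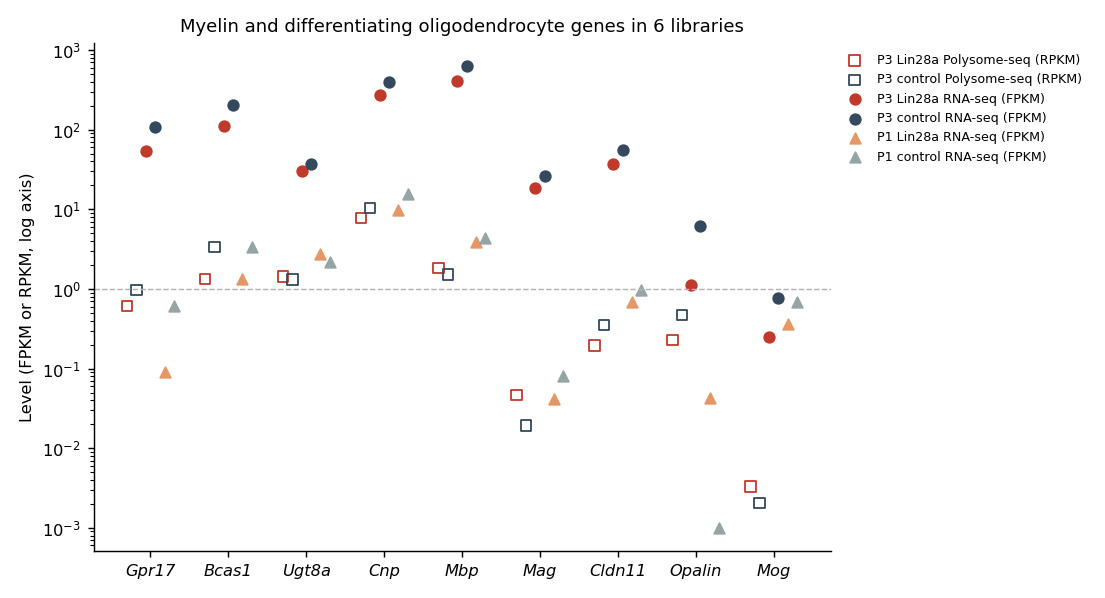
Levels of the 9 genes in each library on a log axis (FPKM for RNA-seq, RPKM for polysome-seq), with filled circles for P3 RNA-seq, triangles for P1 RNA-seq and open squares for P3 polysome-seq; the dashed line marks 1, and Opalin in P1 control, listed at the lowest value in the table, is drawn at 0.001. The circles stand above the triangles for 8 genes, and the squares stand below the circles of the same culture for all 9.

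The genes of newly committed cells were low at P1. Gpr17, a receptor switched on as precursors commit and off again before they mature, had 54.6 FPKM at P3 against 0.0909 FPKM at P1 in the Lin28a culture, and 109 FPKM at P3 against 0.616 FPKM at P1 in control. Bcas1, a marker of cells that are about to myelinate, had 111 FPKM at P3 against 1.34 FPKM at P1 in the Lin28a culture, and 203 FPKM at P3 against 3.37 FPKM at P1 in control. Both genes were higher at P3 in both cultures, and in each passage the Lin28a library had less than its control. At P1 Gpr17 was under 1 FPKM in both cultures, too low to be compared. Gpr17 overlaps Lims2 in the annotation, and whether the counting used strand is not given in the sources used here. Lims2 had 13.1 FPKM at P3 and 0.0520 FPKM at P1 in the Lin28a culture, and 26.0 FPKM at P3 and 0.210 FPKM at P1 in control, so reads of the pair may not be separable.

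Among the enzymes Cnp, a phosphodiesterase of the myelin cytoplasm, had 270 FPKM at P3 against 9.88 FPKM at P1 in the Lin28a culture, and 391 FPKM at P3 against 15.4 FPKM at P1 in control. It was the highest of the 9 at P1 in both cultures and second to Mbp at P3. Dnajc7, which overlaps Cnp, stayed between 87.5 and 97.0 FPKM in the 4 libraries. Ugt8a, which makes the galactosylceramide of myelin, had 30.4 FPKM at P3 against 2.75 FPKM at P1 in the Lin28a culture, and 36.7 FPKM at P3 against 2.20 FPKM at P1 in control. Its passage ratios were the smallest among genes that reached 1 FPKM in all 4 libraries.

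Among the structural genes Mbp stood out. Mbp, the basic protein that holds the inner faces of the membrane together, had 408 FPKM at P3 against 3.88 FPKM at P1 in the Lin28a culture, and 633 FPKM at P3 against 4.39 FPKM at P1 in control. Its rank among the 17919 genes was 174 at P3 and 10090 at P1 in the Lin28a culture, and 140 at P3 and 9908 at P1 in control. Mag, an adhesion protein that faces the axon, had 18.4 FPKM at P3 against 0.0419 FPKM at P1 in the Lin28a culture, and 26.5 FPKM at P3 against 0.0808 FPKM at P1 in control. Cldn11, the claudin that seals the layers, had 37.3 FPKM at P3 against 0.692 FPKM at P1 in the Lin28a culture, and 56.2 FPKM at P3 against 0.964 FPKM at P1 in control. All 3 genes were far higher at P3 in both cultures. At P1 Mag and Cldn11 were both under 1 FPKM, so the pseudocount understates their ratios.

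Genes of mature cells stayed low. Opalin, a membrane glycoprotein of mature oligodendrocytes, had 1.11 FPKM at P3 against 0.0429 FPKM at P1 in the Lin28a culture. In control it had 6.25 FPKM at P3 and was listed at the floor of the table at P1. Mog, a protein of the outermost myelin surface, had 0.249 FPKM at P3 against 0.365 FPKM at P1 in the Lin28a culture, and 0.779 FPKM at P3 against 0.677 FPKM at P1 in control. Mog reached 1 FPKM in none of the 4 libraries and entered no comparison. In both P3 libraries the order from high to low was Mbp, Cnp, Bcas1, Gpr17, Cldn11, Ugt8a, Mag, Opalin and Mog.

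Of the 8 genes compared, all 8 were past 2-fold higher at P3 in the Lin28a culture, where 8.38% of 12850 genes were, with ratios of 1.02 (Opalin) to 6.39 (Mbp) and a median of 4.57. None was past 2-fold lower, where 4.8% of all genes were. In control all 8 were past 2-fold higher, where 11.5% of 13011 genes were, and none lower, where 8.14% were. Leaving out Opalin, which was at the floor at P1, the control ratios ran from 3.56 (Ugt8a) to 6.88 (Mbp) with a median of 4.86. The medians over all genes were -0.01 in the Lin28a culture and -0.00 in control. Gpr17, Mag, Cldn11 and Opalin entered these comparisons through their P3 values alone, so their part of the count follows from the filter. Cnp, Mbp, Bcas1 and Ugt8a reached 1 FPKM at both passages, with ratios of 3.07 to 6.39 in the Lin28a culture and 3.56 to 6.88 in control.

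**Figure D2:**
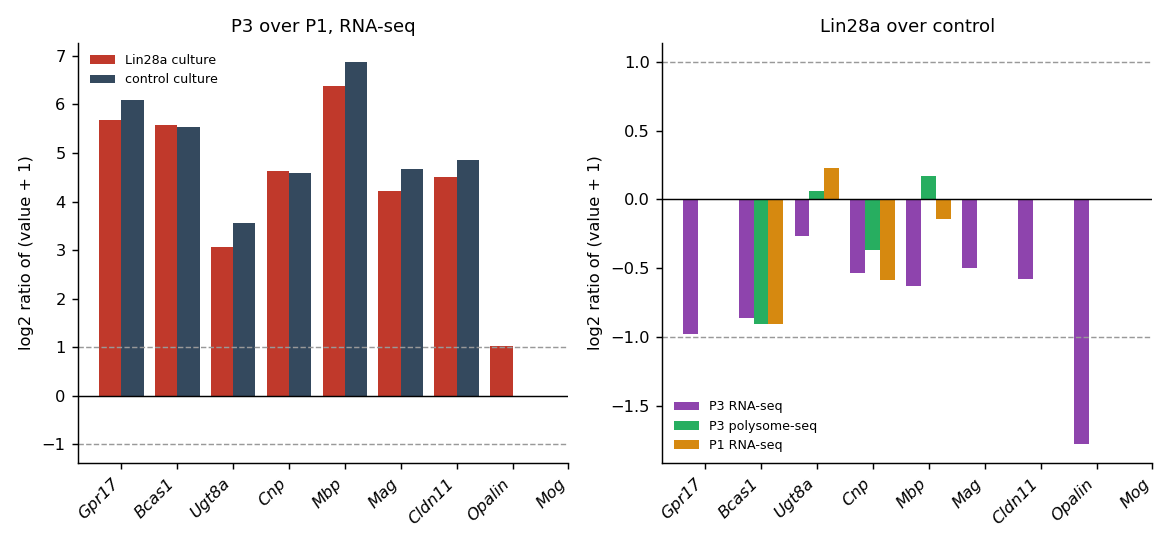
Log2 ratios of (value + 1) for the 9 genes, with P3 over P1 on the left (Lin28a culture and control culture) and Lin28a over control on the right (P3 RNA-seq, P3 polysome-seq and P1 RNA-seq); dashed lines mark 2-fold, genes not compared have no bar, and no control passage bar is drawn for Opalin, which was at the floor at P1. On the left every bar passes 1, and on the right only Opalin in P3 RNA-seq passes -1.

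With Lin28a, the set was lower than in control at P3, by amounts that mostly stayed within 2-fold. All 8 genes compared were lower by any amount, as were 6544 of 12716 genes, and their median ratio was -0.61 against -0.01 over all genes. Only Opalin was past 2-fold (-1.78), where 1.34% of all genes were past 2-fold lower and 1.31% higher. Its Lin28a level was 17.8% of control. Gpr17 lay just inside 2-fold at -0.98, with 50.2% of its control level. Bcas1 was at 54.7% of control (ratio -0.86), Mbp at 64.5% (-0.63), Cldn11 at 66.3% (-0.58), Cnp at 68.9% (-0.54), Mag at 69.5% (-0.50) and Ugt8a at 82.7% (-0.27). Mog was too low to be compared. The P3 control library is shared with the control passage comparison above, so the 2 sets of ratios are not independent.

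At P1 only 4 genes could be compared, and none was past 2-fold in either direction, where 0.135% of 12564 genes were past 2-fold higher and 0.0955% past 2-fold lower. Bcas1 had a ratio of -0.90, Cnp -0.59, Mbp -0.14 and Ugt8a 0.23. Gpr17 was under 1 FPKM in both P1 libraries, with 0.0909 FPKM in Lin28a and 0.616 FPKM in control. Ugt8a thus lay on the other side of 0 from its P3 ratio. The Bcas1 ratio depends on the pseudocount, since its Lin28a level was 39.6% of control at P1 and 54.7% at P3, and with 0.1 its ratio was -1.27 at P1 and -0.87 at P3.

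The passage ratio of the Lin28a culture minus that of control asks whether the P1 to P3 difference itself was smaller. It uses all 4 RNA-seq libraries. It was -0.49 for Mbp, -0.49 for Ugt8a, -0.45 for Mag, -0.41 for Gpr17 and -0.36 for Cldn11, and it was 0.05 for Cnp and 0.04 for Bcas1, which became 0.40 with a pseudocount of 0.1. Opalin alone was past 2-fold lower, where 0.898% of 13138 genes were (1.55% were higher), and its value rests on a P1 control level at the floor. The sign for Gpr17 depends on the pseudocount, since with 0.1 in place of 1 its difference was 0.91. The median over the 8 genes was -0.43, and -0.00 over all genes, but it too moved with the pseudocount and was -0.17 with 0.1.

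Most other genes of the pathway that could be compared were higher at P3, but many of them entered through their P3 values alone. Of 36 other myelin and mature oligodendrocyte genes listed, 35 were in the table, and 21 of 28 compared were past 2-fold higher at P3 and 1 was lower in the Lin28a culture (median 1.72). In control 19 of 30 were higher and 1 lower (median 2.04). In the Lin28a culture 28 genes reached 1 FPKM at P3 and 15 at P1, and in control 30 and 17 did. A gene that reached it at P3 alone could only be higher at P3, so that part of the counts follows from the filter. Plekhb1 had passage ratios of 4.03 in the Lin28a culture and 5.05 in control, and the connexin Gjc3 had 1.20 and 2.75. The gene that was lower was Apod, with 1.17 FPKM at P3 against 9.10 FPKM at P1 in the Lin28a culture, and 1.32 FPKM at P3 against 8.27 FPKM at P1 in control. Genes of mature myelin were low here too. Mobp was at 0.984 FPKM in P3 Lin28a and 1.13 FPKM in P3 control, while Ermn and Hapln2 stayed under 0.1 FPKM in all 4 RNA-seq libraries. Against control at P3, 3 of 31 genes were past 2-fold lower with Lin28a and none higher (median -0.37). These were Gjc3 (-1.62), Plekhb1 (-1.48) and Trf, transferrin (-1.36).

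Precursor genes had smaller passage medians than the 8 genes of the set that were compared. Of 14, 10 of 12 compared were past 2-fold higher at P3 in the Lin28a culture (median 1.77), and 10 of 14 were in control (median 1.87). The filter limits these counts too, since 12 genes reached 1 FPKM at P3 and 9 at P1 in the Lin28a culture, and 14 and 11 in control. Sox10 had 54.6 FPKM at P3 against 0.173 FPKM at P1 in the Lin28a culture, and 74.8 FPKM at P3 against 1.04 FPKM at P1 in control. Olig2 was already high at P1, with 93.3 FPKM at P3 against 34.4 FPKM at P1 in the Lin28a culture, and 130 FPKM at P3 against 55.7 FPKM at P1 in control. Lin28a over control at P3 had a median of -0.42 over the 14 genes, with Olig1 (-1.10) past 2-fold. Of 7 genes known for holding back oligodendrocyte differentiation, 3 were past 2-fold higher and 1 lower at P3 in the Lin28a culture, and 4 were higher in control, among them Hes5 (2.21 in Lin28a, 1.89 in control) and Sox6 (2.03 and 1.82).

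Markers of other cells moved as follows, and their part in the results was not tested. In these lists too, a gene that reached 1 FPKM at only 1 passage could only be higher at that passage. Of 14 astroglial genes, 13 were past 2-fold higher at P3 in each culture. With Lin28a at P3, 5 of 14 were past 2-fold lower than control (median -0.79). Their summed level was 4662 FPKM at P3 against 1771 FPKM at P1 in the Lin28a culture. In control it was 9484 FPKM at P3 against 2138 FPKM at P1. These sums came mostly from Fabp7 and Apoe at P3 and from Fabp7 at P1. Of 14 neuronal genes, 9 were past 2-fold lower at P3 in the Lin28a culture and 13 in control, and 6 of 13 compared were past 2-fold higher with Lin28a at P3 (median 0.98). Schwann cells of peripheral nerve also make myelin. Of the 12 Schwann cell and neural crest genes, which include Sox10, 5 could be compared between passages in each culture. Of these, 2 were past 2-fold higher at P3 in the Lin28a culture (Sox10 and Egr2) and 3 in control (Sox10, Egr2 and Cdh19), and none was past 2-fold lower. Egr2 had 1.66 FPKM at P3 against 0.297 FPKM at P1 in the Lin28a culture, and 4.16 FPKM at P3 against 0.385 FPKM at P1 in control. Cdh19 had 0.720 FPKM at P3 against 0.0515 FPKM at P1 in the Lin28a culture, and 2.52 FPKM at P3 against 0.0476 FPKM at P1 in control. Ngfr, also on that list, reached at most 0.488 FPKM in RNA-seq. Sums over 10 microglial genes lay between 1.56 and 2.35 FPKM, with 5 of the 10 listed at the floor in each P3 library, and sums over 7 endothelial genes between 5.23 and 9.15 FPKM. Of 10 mesenchymal genes, 4 were past 2-fold lower and 3 higher at P3 in the Lin28a culture (median -0.98), and 5 were lower and 3 higher in control (median -1.24). Their sum was 286 FPKM at P3 against 130 FPKM at P1 in the Lin28a culture, and 443 FPKM at P3 against 143 FPKM at P1 in control, mostly from Acta2 and Tagln at P3.

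**Figure D3:**
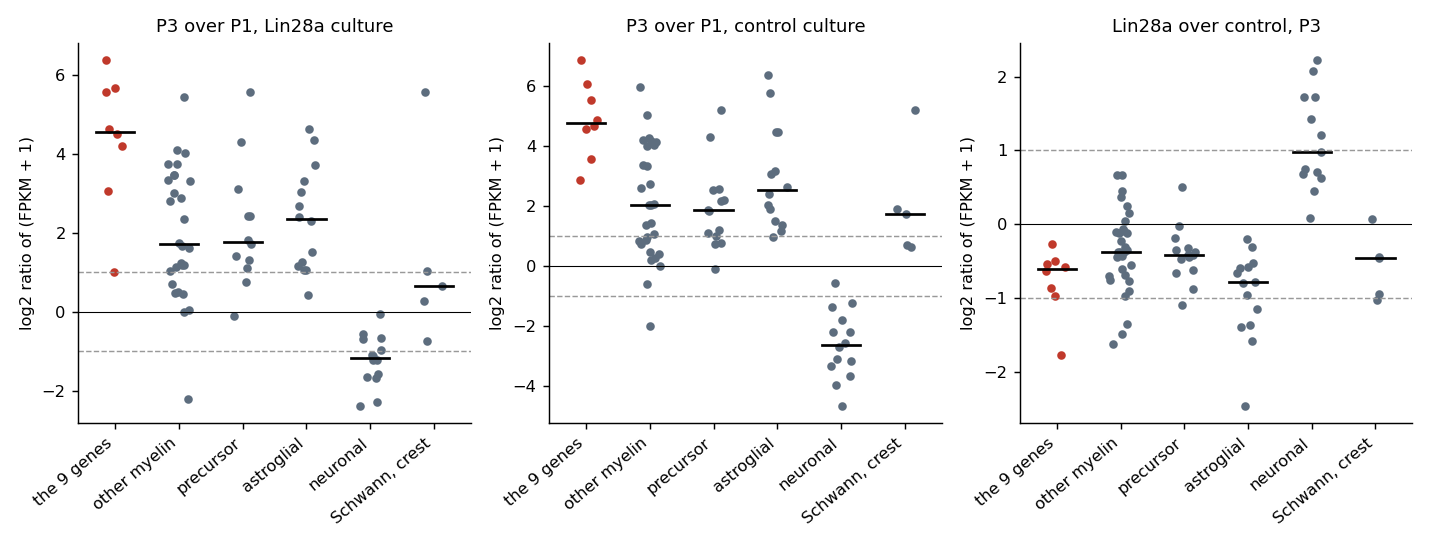
Log2 ratios of (FPKM + 1) for single genes (points) and list medians (black bars) in 6 lists, with P3 over P1 in the Lin28a culture on the left, P3 over P1 in the control culture in the middle, and Lin28a over control at P3 on the right; dashed lines mark 2-fold. The passage medians over the 8 of the 9 genes compared (4.57 and 4.77) lie above those of the other lists. The control median includes Opalin, which was at the floor at P1. Neuronal genes lie on the opposite side of 0 from the 8 genes in all 3 panels.

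Genes whose RNA-seq profile was nearest to the set were ranked by distance from the median profile of the 9 genes, over differences from P1 control on the log2 scale in the other 3 RNA-seq libraries, among 13130 genes. The nearest 8 were 9330188P03Rik (root mean square distance 0.10), Pla2g7 (0.22), Matn4 (0.26), S100b (0.30), Myrf (0.32), Hepacam (0.33), Lims2 (0.38) and Gal3st1 (0.41). Within the set Mag (0.09) and Cldn11 (0.13) were closest to the median profile, and Mbp (1.75) and Opalin (2.07) were farthest. Myrf had 22.4 FPKM at P3 against 0.348 FPKM at P1 in the Lin28a culture, and 24.4 FPKM at P3 against 0.438 FPKM at P1 in control. Gal3st1, which sulphates the lipid that Ugt8a makes, had 14.6 FPKM at P3 against 0.160 FPKM at P1 in the Lin28a culture, and 20.2 FPKM at P3 against 0.184 FPKM at P1 in control. The profile was not limited to oligodendrocyte genes, since S100b is on the astroglial list. S100b had 13.6 FPKM at P3 against 0.112 FPKM at P1 in the Lin28a culture. In control it had 22.2 FPKM at P3 against 0.0519 FPKM at P1. Passage ratios on the astroglial list reached 4.65 in the Lin28a culture and 6.36 in control. The ranking rests on 4 libraries, and nearness to the profile was not tested.

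In polysome-seq at P3 the set was low, at levels closer to P1 than to P3 RNA-seq. It summed to 13.4 RPKM in Lin28a and 18.4 RPKM in control, and 4 of 9 genes reached 1 RPKM in each. Cnp had 7.78 RPKM in Lin28a and 10.4 RPKM in control. Bcas1 had 1.32 RPKM in Lin28a and 3.35 RPKM in control, and Gpr17 had 0.606 RPKM in Lin28a and 0.975 RPKM in control. Both of the early genes were lower with Lin28a in this assay as well, but Gpr17 was under 1 RPKM in both libraries and was not compared. Mbp had 1.83 RPKM in Lin28a and 1.51 RPKM in control, and Ugt8a had 1.42 RPKM in Lin28a and 1.32 RPKM in control. These 2 genes were slightly higher with Lin28a in polysomes, whereas in P3 RNA-seq they were lower. Cldn11 had 0.193 RPKM in Lin28a and 0.352 RPKM in control, Opalin had 0.227 and 0.472 RPKM, and Mag had 0.0464 and 0.0193 RPKM. Mog was listed at the floor in both.

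Of the 4 genes that could be compared in polysomes, none was past 2-fold, where 0.952% of 12289 genes were past 2-fold higher and 0.122% lower. The ratios of Lin28a over control were -0.90 for Bcas1, -0.37 for Cnp, 0.06 for Ugt8a and 0.17 for Mbp, beside a median of 0.06 over all genes. The polysome ratio minus the RNA ratio was 0.80 for Mbp, 0.33 for Ugt8a, 0.16 for Cnp and -0.04 for Bcas1, and none of these 4 was past 2-fold, where 0.771% of 11934 genes were past it higher and 0.209% lower. The median over all genes was 0.07.

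The gap between the assays was large for the set and was not limited to it. The log2 difference of (RPKM + 1) in polysomes minus (FPKM + 1) in RNA-seq had a median of -4.97 over 8 of the genes in Lin28a and -5.26 in control, against -0.41 and -0.49 over all genes. Over genes at 20 FPKM or more in RNA-seq it was -0.84 in Lin28a and -1.002 in control. For Mbp it was -7.17 in Lin28a, with 3 of 12844 genes lower, and -7.98 in control, with 1 of 12790 genes lower. Gpr17 was at -5.11 in Lin28a and -5.80 in control, and Ugt8a at -3.70 and -4.02. Opalin, low in both assays, was at -0.78 in Lin28a and -2.30 in control. Astroglial genes had medians of -2.82 in Lin28a and -3.24 in control, and precursor genes -1.29 and -1.33. Among the precursor genes Sox10 had 0.642 RPKM in Lin28a and 1.66 RPKM in control, whereas Olig2 had 64.0 and 99.6 RPKM. The floors of the value scales differ between the assays, and whether both used the same cells is not given in the sources used here.

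**Figure D4:**
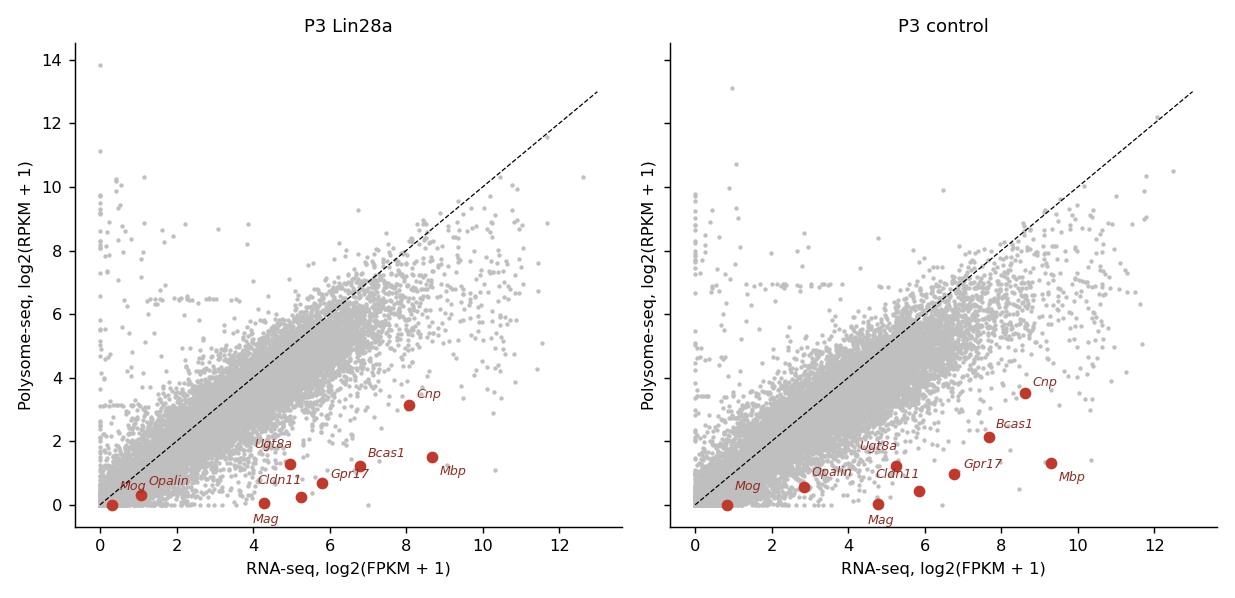
Polysome-seq log2(RPKM + 1) against RNA-seq log2(FPKM + 1) at P3 for all 17919 genes (grey) and the 9 genes (red), with Lin28a on the left and control on the right; the dashed line marks equal values. Mbp, Cnp, Bcas1, Gpr17, Cldn11, Mag and Ugt8a lie at the lower edge of the cloud in both panels.

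Promoter sequences from RefSeq (build GRCm38.p6, 250 bases before to 50 after the start) are shown for 3 genes whose RNA was higher at P3 in both cultures and whose window holds the letters ACAAAG, the core of SOX binding motifs, since Sox10 was among the genes that were higher at P3. Mbp, Gpr17 and Bcas1 were left out of the search, so the motif counts below do not cover them. Windows of the remaining 6 of the 9 genes were searched on both strands. Of these, Opalin, Cnp and Mag held ACAAAG in at least 1 window, and Mog, Cldn11 and Ugt8a did not. Mag has 3 windows, and the third did not hold it. Counted by window and not by gene, 18.7% of 32851 windows held it. The windows are Opalin at chr19:41077064-41077363 on the minus strand, Cnp at chr11:100574689-100574988 on the plus strand, and the first of 3 for Mag at chr7:30914814-30915113 on the minus strand. Each is printed 5′ to 3′ along the gene, with ACAAAG or its reverse complement in capitals.
Opalin: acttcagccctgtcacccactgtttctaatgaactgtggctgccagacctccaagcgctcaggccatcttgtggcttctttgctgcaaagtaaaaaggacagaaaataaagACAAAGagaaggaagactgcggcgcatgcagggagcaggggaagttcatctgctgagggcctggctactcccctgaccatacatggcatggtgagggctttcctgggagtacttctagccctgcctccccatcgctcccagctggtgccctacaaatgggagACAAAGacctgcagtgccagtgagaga
Cnp: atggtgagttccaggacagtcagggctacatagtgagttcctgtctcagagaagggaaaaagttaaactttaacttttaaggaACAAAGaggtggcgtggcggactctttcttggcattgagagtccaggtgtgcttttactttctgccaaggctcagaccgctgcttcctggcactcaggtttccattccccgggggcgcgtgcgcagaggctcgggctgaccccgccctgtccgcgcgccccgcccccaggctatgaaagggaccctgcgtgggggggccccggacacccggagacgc
Mag: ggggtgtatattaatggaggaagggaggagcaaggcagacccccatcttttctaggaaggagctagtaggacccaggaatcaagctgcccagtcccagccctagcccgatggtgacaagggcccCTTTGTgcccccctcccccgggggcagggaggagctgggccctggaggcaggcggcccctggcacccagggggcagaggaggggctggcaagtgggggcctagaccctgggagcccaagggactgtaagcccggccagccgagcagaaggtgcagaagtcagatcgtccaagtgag
Opalin held ACAAAG at -139 and at 23 bases from the start, Cnp at -167 and Mag at -126. The letters CTGGNAC, of the Myrf motif, were in the windows of Cnp, Mag (not the third), Opalin and Mog, and in 19.3% of all windows. The E-box letters CANNTG were in those of Cnp, Mag, Opalin and Ugt8a and in 72.3% of all windows. None of the searched windows of the set held TATAAA (13.6% of all). A match is a description of letters, not of binding.

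The small RNA libraries gave another readout of the same kinds of culture. miR-219 and miR-338 are microRNAs that accumulate in oligodendrocytes and are known in mice for promoting their differentiation, and miR-138, miR-23a and miR-32 have also been tied to it. Of the 11 compared below, 8 strands are printed 5′ to 3′ from RefSeq (GRCm38.p6) with the seed, bases 2 to 8, in capitals.
miR-219a-5p: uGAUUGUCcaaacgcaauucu
miR-219a-1-3p: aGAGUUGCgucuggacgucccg
miR-338-3p: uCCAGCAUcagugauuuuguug
miR-338-5p: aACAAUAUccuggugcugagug
miR-138-5p: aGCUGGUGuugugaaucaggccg
miR-138-1-3p: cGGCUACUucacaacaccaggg
miR-23a-3p: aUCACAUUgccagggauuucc
miR-32-5p: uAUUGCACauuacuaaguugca
miR-219a-2-3p, miR-23b-3p and miR-32-3p are named without a sequence. No 2 of the 8 printed strands share a seed. miR-219a-5p comes from 2 loci, Mir219a-1 on chromosome 17 and Mir219a-2 on chromosome 2, and each locus has a 3p strand of its own, so miR-219a-1-3p and miR-219a-2-3p separate them. miR-338 comes from chromosome 11.

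Values are CPM, counts scaled to the library's total of mature microRNA counts, in libraries of 8542827 (P3 Lin28a), 8288085 (P3 control), 8288819 (P1 Lin28a) and 6322534 (P1 control) counts, with 95% exact binomial intervals of the CPM ratio that cover counting error only. miR-219a-2-3p had 657 CPM at P3 against 74.7 CPM at P1 in the Lin28a culture, a ratio of 8.80 (8.10 to 9.58), and 757 CPM at P3 against 67.4 CPM at P1 in control, a ratio of 11.2 (10.2 to 12.4). miR-219a-1-3p went the other way, with 208 CPM at P3 against 403 CPM at P1 in the Lin28a culture, and 163 CPM at P3 against 259 CPM at P1 in control. The 3p strands of the 2 loci thus differed in direction in both cultures. The miR-219a-1-3p differences were within 2-fold, with log2 ratios of -0.95 in the Lin28a culture and -0.66 in control. The shared strand miR-219a-5p had 356 CPM at P3 against 237 CPM at P1 in the Lin28a culture, and 608 CPM at P3 against 246 CPM at P1 in control.

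miR-338-3p had 188 CPM at P3 against 53.4 CPM at P1 in the Lin28a culture, and 411 CPM at P3 against 76.9 CPM at P1 in control. Its partner strand miR-338-5p had 42.1 CPM at P3 against 9.05 CPM at P1 in the Lin28a culture, and 185 CPM at P3 against 9.33 CPM at P1 in control. Both strands were thus higher at P3, and at P3 both were lower with Lin28a. The ratio of Lin28a over control at P3 was 0.457 (0.430 to 0.485) for miR-338-3p and 0.228 (0.203 to 0.256) for miR-338-5p, and 0.585 (0.559 to 0.612) for miR-219a-5p. It was 0.869 (0.838 to 0.901) for miR-219a-2-3p. miR-138-1-3p, at 12.5 CPM in Lin28a and 39.9 CPM in control at P3, had a ratio of 0.314 (0.250 to 0.391).

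Of 11 listed microRNAs that reached 10 CPM in either library compared, 5 were past 2-fold higher at P3 and none lower in the Lin28a culture, where 13% of 424 microRNAs were higher and 17.7% lower. In control 6 were higher, where 27.1% of 428 were, and 1 was lower, miR-23b-3p, where 29% were. Among those higher in both cultures, miR-138-1-3p and miR-338-5p were under 10 CPM at P1. They entered the passage comparisons through P3 alone and could only be higher there. Both strands of miR-338, from the same locus, are counted separately. At P3, 3 of 11 were past 2-fold lower with Lin28a and none higher, where 12.1% of 414 were lower and 15.5% higher. At P1 none of 9 was past 2-fold, where 2.66% of 414 were higher and 4.35% lower, and the median log2 ratio over all microRNAs was 0.17. miR-23a-3p was at 734 CPM in Lin28a and 759 CPM in control at P3.

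**Figure D5:**
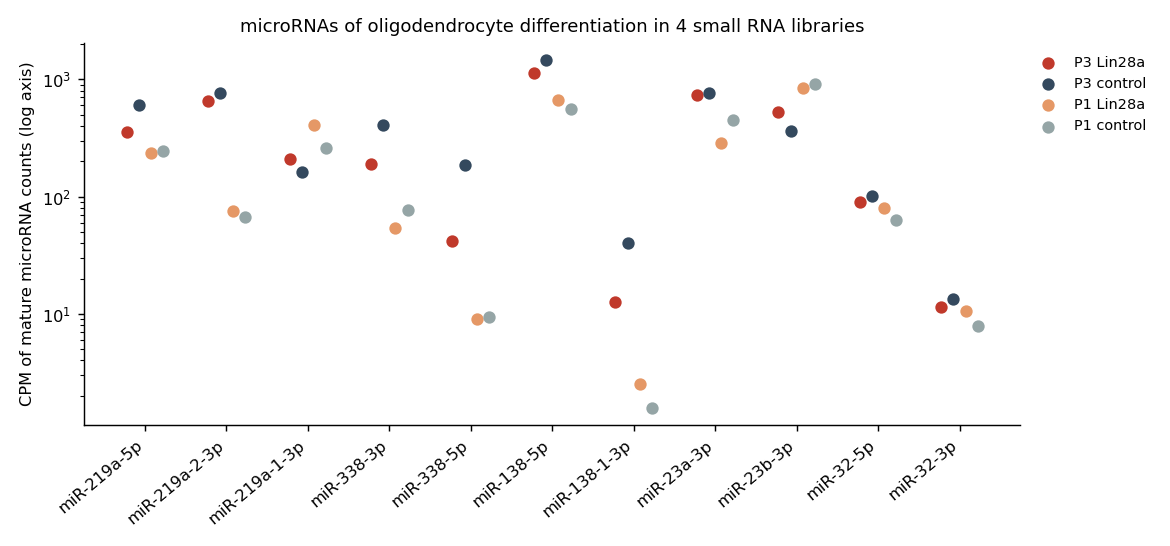
CPM of 11 microRNAs in the 4 small RNA libraries on a log axis, with points from left to right for P3 Lin28a, P3 control, P1 Lin28a and P1 control. miR-219a-2-3p and both strands of miR-338 are higher at P3 than at P1 in both cultures, and both strands of miR-338 are lower in P3 Lin28a than in P3 control.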

How the data were processed

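Neural stem cell cultures were profiled in 10 libraries, of which 4 were RNA-seq, 2 polysome-seq and 4 small RNA, grouped by sample title. RNA-seq values were deposited by the authors as FPKM and polysome values as RPKM, 1 per RefSeq gene. The file headers name no unit, and the units were read from the values and the tools. Bowtie 1.0.0, TopHat2 2.0.6, Cufflinks 2.1.1 and build mm9 are named per the submitters' processing notes, without their roles. The labels call the libraries poly(A)-selected and also name a total RNA kit. Genes without an estimate are listed at 4.8e-07 in RNA-seq, and at 0.00331 and 0.00204 in the polysomes of Lin28a and control. Small RNA values are raw read counts on mature microRNAs, per the file headers. Reads of a microRNA with several loci may count repeatedly, and levels of different microRNAs are therefore not compared.

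Steps between low values gave relative depths of 1.03 (P3 Lin28a), 1.01 (P3 control) and 1.15 (P1 Lin28a) against P1 control RNA-seq, from 43, 26 and 104 genes, and 1.04 for polysome Lin28a against polysome control, from 236 genes. Log2 ratios used a pseudocount of 1, so changes of low genes are understated. A gene entered when it reached 1 in any library compared, and for the polysome minus RNA difference in at least 1 library of each assay. With 1 library per group no test was run. The ratio step was tested on simulated data. The members, lists and rules were chosen with earlier results of these data known. Named genes are the 9 members, genes past 2-fold or with the largest ratios in the listed groups, and the 8 nearest profiles. Nes, Sox2, Ngfr, Dnajc7 and genes named for low values were chosen after their values were seen. Single values of some listed genes are not reported here. Alternatives were a pseudocount of 0.1, no filter, a minimum of 5, ratios centred on their median and, for microRNAs, median-of-ratios scaling. No coordinates other than those of printed sequences are given, since the name table is of another build. Calculations ran in Python 3.11.15 (matplotlib 3.10.9, scipy 1.17.1, pandas 2.3.3, numpy 2.4.6).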

Additional observations from a re-analysis of the deposited data

Results flagged for a closer look

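Ugt8a lay on opposite sides of 0 for Lin28a over control at the 2 passages, with log2 ratios of -0.27 at P3 and 0.23 at P1. The same held for 5 microRNAs. miR-138-5p was at -0.36 at P3 and 0.28 at P1, miR-219a-2-3p at -0.20 and 0.15, miR-32-3p at -0.22 and 0.37, and miR-32-5p at -0.18 and 0.32. miR-23b-3p was at 0.55 at P3 and -0.12 at P1. The median over all microRNAs was 0.08 at P3 and 0.17 at P1. All these values are within 2-fold, each rests on 1 library per group, and the differences between passages were not tested.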

How the results depend on the processing

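The counts of genes past 2-fold for passage in the Lin28a culture and in control, for Lin28a over control RNA at P3 and for the passage change kept within 1.5 times their values under a pseudocount of 0.1, no filter, a minimum of 5 and centred ratios. With a pseudocount of 0.1 the median over the 8 genes became 5.92 for passage in the Lin28a culture and 5.93 in control (main 4.57 and 4.77), and -0.17 for the passage change (main -0.43). With it the count for Lin28a over control became 1 at P1 and 1 in polysomes, Bcas1 in both (-1.27 and -1.28), while all genes past 2-fold became 0.708% and 2.52% (main 0.231% and 1.07%). At P3 they became 5.32% (main 2.65%) and for the passage change 6.2% (main 2.45%). Without a filter the count for the polysome minus RNA difference became 1, Opalin (1.52), and its median 0.51 (main 0.25). Centring removed a polysome median of 0.06, put Ugt8a at -0.00 there, and moved the split of all genes for the polysome minus RNA difference to 72 higher and 40 lower, against 92 and 25. The microRNA counts were the same under median-of-ratios scaling, which moved the median of all microRNAs for Lin28a over control at P1 to 0.05, against 0.17. No paired analysis was possible because each group holds 1 library. Depth limits Mog, Opalin at P1, and the polysome values of Mag, Cldn11 and Opalin, and differences among these low values cannot be read.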
